A study of Mus musculus with 6 samples.

Results

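Bc1 and 9 long noncoding RNAs studied in brain, Malat1, Neat1, Meg3, Miat, Rian, Mirg, Snhg11, Snhg14 and Peg13, were described in the cerebral cortex of young and old mice. These 10 genes were taken from the 55421 genes of the deposited tables, 9 by their symbol and Snhg14 by its gene identifier, because the tables list that identifier under the symbol Ipw. Bc1 was chosen because it had been named as a gene of higher expression in the old mice of these same libraries, so its age difference is given as a description without a p-value, and the other 9 were chosen as RNAs known from work on brain, whatever their level here. The authors also measured Bc1 by quantitative PCR in a larger set of cortex samples of both sexes and reported it as higher with age there. Those measurements were not used here. The cortex came from male wild-type C57BL/6J mice, 3 of 6 months (mice 10, 11 and 17) and 3 of 24 months (mice 2, 4 and 5), all under isoflurane before death, and 1 library was made per mouse from a low-input RNA kit. Each age is therefore 3 animals of 1 sex and 1 strain, and how the mice were housed relative to one another or processed in batches was not given in the sources used here.

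Long noncoding RNAs are transcripts without a known protein product. Many act where they are made, in the nucleus, where they help shape splicing or the activity of nearby genes. Others are best known as the unspliced or spliced remainder of transcripts from which small nucleolar RNAs (snoRNAs) or microRNAs are cut. Several of the 10 genes come from imprinted domains, regions in which only the copy inherited from one parent is active and which are strongly expressed in neurons. Bc1 is the exception in size and in origin. It is a short rodent RNA made by RNA polymerase III that is carried into dendrites and represses the start of translation there.

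Bc1 is printed because its sequence bears on how its reads could be counted. The gene lies on chromosome 7 of GRCm38 from 144914470 to 144914637 on the plus strand and is a single exon of 168 bases. The GENCODE vM21 transcript reads, 5′ to 3′, with capitals for the A box, an internal promoter element of RNA polymerase III genes, and for the long run of A:

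Bc1: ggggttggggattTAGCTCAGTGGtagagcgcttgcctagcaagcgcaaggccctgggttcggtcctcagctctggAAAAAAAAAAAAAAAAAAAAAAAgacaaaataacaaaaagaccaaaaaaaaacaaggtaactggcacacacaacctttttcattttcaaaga

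The A box was found at bases 14 to 24 as an 11-base consensus with 3 free positions, searched on both strands, which was held by 408 of 32851 RefSeq promoter windows of 300 bases (1.24%). The capital run of A covers bases 77 to 99 (23 bases), and A makes up 41.7% of the whole RNA. The first part of Bc1 is shared with a repeat family of the mouse genome. Of its 139 stretches of 30 bases, 61 (43.9%) also occurred in the annotated transcripts of at least 1 of 22 other genes, and the last shared stretch ended at base 106. The region after base 106 had no such match. The annotated pseudogene Bc1-ps1, whose longest identical run with Bc1 is 31 bases, had 0 or 1 count in every library, so no count pool of that copy could be seen. The libraries were also size-selected on a gel, and how far an RNA as short as Bc1 passed that selection was not tested.

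Mirg and Rian are known as hosts of microRNAs, and Rian and Snhg14 of snoRNAs. The annotated span of Mirg held 14 microRNA hairpins with 26 mature RefSeq microRNAs of 25 seeds, that of Rian 3 hairpins with 6 mature microRNAs, and that of Meg3 held 3 mature microRNAs. The seed, bases 2 to 8, is the part that pairs with target messages, and it is set in capitals below for the only pair of Mirg microRNAs with the same seed and for miR-134-5p, a microRNA known from dendritic spines:

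mmu-miR-453: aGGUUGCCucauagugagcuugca

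mmu-miR-496a-5p: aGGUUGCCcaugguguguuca

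mmu-miR-134-5p: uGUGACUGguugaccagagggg

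These libraries measured the host transcripts and not the mature microRNAs. The rows of the 14 microRNA genes inside Mirg summed to 151 counts over the 6-month mice and 123 over the 24-month mice, and the 208 snoRNA rows inside Snhg14 to 66 and 107 counts, beside 2153 and 1795 counts of Mirg itself and 4605 and 5507 of Snhg14.

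The libraries held 29495379 to 36494240 counts on genes. The 24-month libraries had a count on 40208 to 43561 genes and the 6-month libraries on 33974 to 35651. Genes of sensory receptors were taken as a low reference level, and whether their reads are expression or background was not tested. They were read as CPM, counts relative to the library total. They reached 0.0203 to 0.0233 CPM for each exonic kb in the 6-month libraries, and 0.0550 to 0.0938 in the 24-month ones. That level, per exonic kb, was at most 9.44% of Neat1, 5.26% of Snhg14, 4.35% of Mirg and under 2% of each of the other 7 genes in the library where it weighed most. CPM values are scaled by the TMM factors of edgeR, and log2 fold changes are those of 24 against 6 months. Genes of at least 1 CPM had a median of -0.14 on this scaling and of 0.05 with library totals alone, so each difference is also given under other scalings where that matters. As for the tissue, all 6 neuron markers were expressed. Their summed level was 7938 to 9278 CPM at 6 months and 5856 to 7671 CPM at 24 months, below every 6-month library with TMM scaling but overlapping with library totals alone (7464 to 8540 against 6441 to 7952 CPM). The sums of the other 9 marker lists (3 of glia, 2 of blood or vessels, 2 of choroid plexus or meninges, and 2 of striatum or hippocampus) overlapped between the ages with TMM scaling. The astrocyte sum was higher in every old mouse with library totals alone (1193 to 1270 CPM at 6 months, 1322 to 1445 CPM at 24 months) and the other 8 overlapped. In whole tissue, fewer cells of a type and less RNA per cell cannot be told apart.

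The 10 RNAs spanned nearly 3 orders of magnitude in TPM, the length-corrected unit used here to compare genes. Malat1 was the highest with a mean of 4983 TPM over the 6 libraries and rank 9 among all genes. Bc1 followed with 1037 TPM (rank 80), Snhg11 with 950 TPM (rank 93), Meg3 with 510 TPM (rank 261) and Peg13 with 278 TPM (rank 548). The second place of Bc1 rests on division by its 168 bases. In CPM, which takes no account of length, its mean was 46.9, above only Neat1 (32.6) and Mirg (19.8). How well TPM holds for so short an RNA in size-selected libraries was not tested. The place of Bc1 differed between libraries, and in 6-month mouse 11 its 1177 TPM was above the 794 TPM of Snhg11. At 6 months its mean of 619 TPM was below the 907 TPM of Snhg11, and in mouse 17 its 237 TPM was also below Meg3 (486 TPM) and Peg13 (276 TPM), whereas at 24 months its mean of 1454 TPM was above the 992 TPM of Snhg11. A wide gap separated these 5 from Miat (22.6 TPM), Rian (21.2 TPM), Mirg (9.90 TPM), Snhg14 (7.13 TPM) and Neat1 (5.78 TPM, rank 11658). Some neighbours in this order could not be separated by their ranges over libraries. Bc1 was above Snhg11 in 4 of 6 libraries, Miat above Rian in 3, and Snhg14 above Neat1 in 5, whereas Mirg was above Snhg14 in all 6 although their ranges met. Together the 10 genes took 1.33% to 1.53% of the counts at 6 months and 1.40% to 1.78% at 24 months. The value for Rian rests on the authors' exon model, whose length implied by the TPM values (31981 bases) exceeds the 18234 exonic bases of GENCODE vM21.

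**Figure D1:**
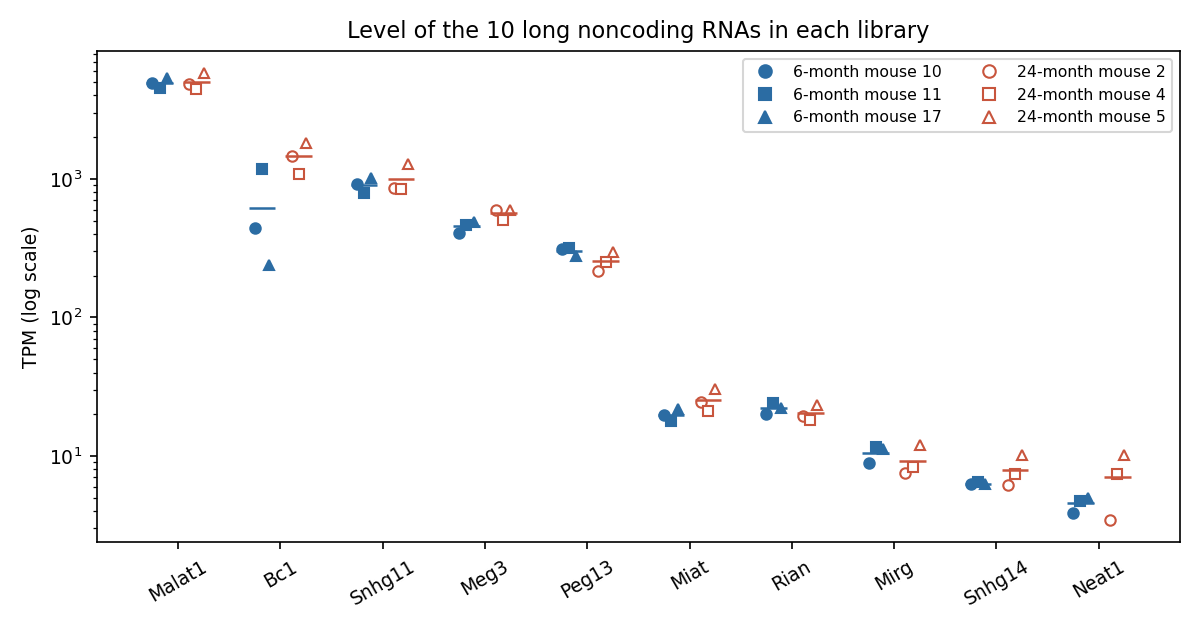
TPM (log scale) of the 10 RNAs in each of the 6 libraries, with filled blue symbols for 6-month mice, open red symbols for 24-month mice and a horizontal line at the mean of each age. Bc1 is spread from 237 to 1177 TPM among the 6-month mice, while Malat1 stays between 4451 and 5798 TPM in all libraries.

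Bc1 was the most variable of the 10 among the 6-month mice, whereas among the 24-month mice Neat1 was (2.96-fold from lowest to highest), and Bc1 had the largest fitted log2 fold change. It had 444, 1177 and 237 TPM in the 6-month mice 10, 11 and 17 and 1457, 1080 and 1825 TPM in the 24-month mice 2, 4 and 5. Mice 10 and 17 were low and mouse 11 was as high as an old mouse, so the ages overlapped. In CPM the means were 29.5 ± 23.4 at 6 months and 64.2 ± 16.5 at 24 months (SD, n = 3), a fitted log2 fold change of 1.12 (SE 0.46), or 2.17-fold. The difference depended on single mice. It was 2.01 without 6-month mouse 11, the high young mouse, and 0.73 without 6-month mouse 17. Among the 6-month mice the highest Bc1 level was 4.95 times the lowest, a spread reached by 53 of 15761 genes of at least 1 CPM (0.336%), for which the median was 1.18. Among the 24-month mice it was 1.69 times, reached by 11.5% of genes, against a median of 1.24.

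Genes that followed Bc1 from library to library were sought over the 15760 other genes of at least 1 CPM. Likeness was the root mean square difference of log2 CPM centred on each gene's own mean. The closest was Gm50024, a long intergenic noncoding RNA, at 0.303, where Bc1's own deviation from its mean was 0.991. Its counts were 50, 85 and 23 for the young mice 10, 11 and 17, then 92, 87 and 130 for the old mice 2, 4 and 5. Gm50024 is also one of the 22 genes that share sequence with Bc1, holding 16 of the 139 stretches of 30 bases, so reads of the pair may not be fully separable. The gene holding most of them, Lrrc17 (53 stretches), was counted 13, 17 and 18 times, then 7, 17 and 13 times, without the low value of mouse 17. Akap5, with 48 of the stretches, was counted 4275, 3697 and 4370 times in young and 3455, 3504 and 3618 times in old mice. By contrast 4930528J11Rik, with 2 of the stretches, was counted 13, 15 and 5 times in young and 45, 24 and 23 times in old mice. The part of shared reads in the pattern of Bc1 was not tested. The next closest were mt-Tv, the mitochondrial valine tRNA (0.471), Tex15 (0.485), E230020A03Rik (0.509) and 6720469O03Rik (0.515), and all 4 had their lowest or second lowest values in mice 10 and 17. Lrrc17, Akap5, 4930528J11Rik and Gm50024's place among the sharing genes were picked out after their values were seen.

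**Figure D2:**
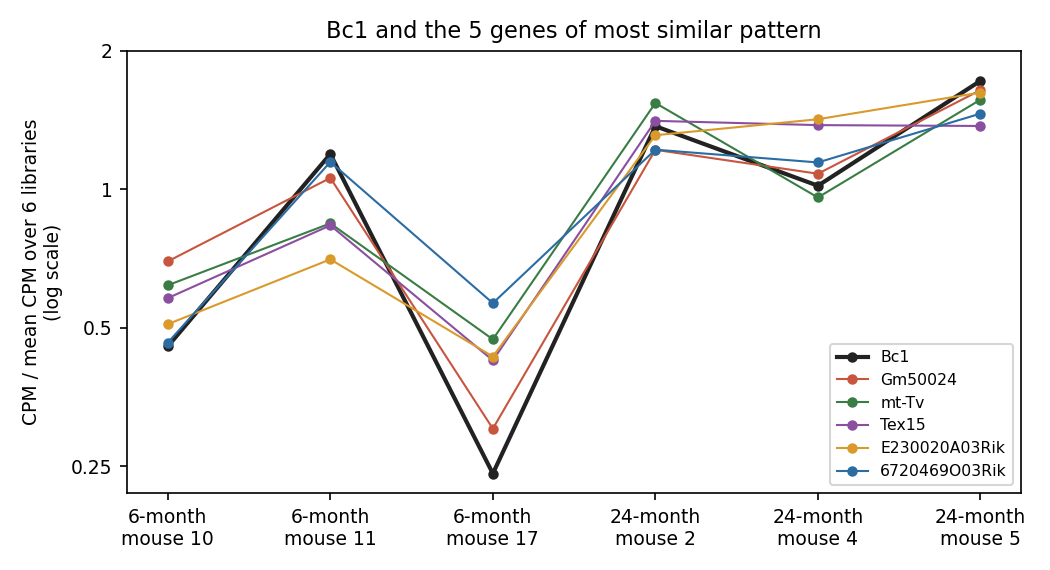
CPM of Bc1 and of the 5 genes nearest to it in pattern, each divided by its own mean over the 6 libraries (log scale, with lines joining the points of 1 gene). Bc1 and Gm50024 share the low value of 6-month mouse 17 and the high value of 6-month mouse 11 and 24-month mouse 5.

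Genes of proteins linked to Bc1 in earlier work were measured here only as RNA. In edgeR's quasi-likelihood test 0 of all 32905 genes tested passed 1% FDR (0.0%), so 0 calls in a list are not particular to it. Of 12 tested, among them the fragile X protein gene Fmr1 and its partner Cyfip1, 0 passed 1% FDR in that test. At its unadjusted p under 0.05, 6 were lower and 1 higher, and the median log2 fold change was -0.26. Over genes of at least 1 CPM other than the 10 RNAs, 26.9% were lower and 4.22% higher at that p. With library totals alone 1 was lower and 2 higher and the median was -0.07, where 5.81% of genes of at least 1 CPM were lower and 11.9% higher. Hnrnpa2b1, which carries RNAs into dendrites, had the lowest fold change (-0.39, SE 0.09, FDR 0.0553), followed by the translation initiation helicase Eif4a1, which Bc1 is known to inhibit (-0.35, SE 0.09, FDR 0.0567). Pura, which binds the dendritic targeting element, was at 0.16 (SE 0.09) and Purb at -0.03 (SE 0.11).

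Genes of RNA polymerase III, the enzyme that makes Bc1, and of factors and regulators listed with it were expressed at each age. Of 22 genes 0 passed 1% FDR, as for all 32905 genes tested (0.0%). At an unadjusted p under 0.05, 12 were lower and 0 higher, with a median of -0.27. Over genes of at least 1 CPM 26.9% were lower and 4.22% higher, with a median of -0.14. With library totals alone 1 was lower and 1 higher and the median was -0.08, beside 5.81% lower and 11.9% higher. Gtf3c1, the largest subunit of the factor TFIIIC that binds A and B boxes, averaged 98.8 ± 6.29 CPM in young and 68.5 ± 8.71 CPM in old mice (SD, n = 3; log2 fold change -0.53, SE 0.11, FDR 0.0518). Gtf3c3 of the same factor was at -0.38 (SE 0.15), and Polr3gl and Gtf3a were the highest of the list at 0.23 (SE 0.12) and 0.01 (SE 0.14). Other short RNAs were hardly sampled. Of 13 rows for them, 4 reached 10 counts and none 1 CPM. Rn7sk, the 7SK RNA that holds the elongation factor P-TEFb, was counted 6, 6 and 12 times in young and 12, 14 and 12 times in old mice. Rpph1, the RNA of RNase P, was counted 3, 0 and 3 times, then 2, 3 and 6 times. Terc and Rmrp had 0 counts in all 6 libraries.

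Across the other 9 RNAs no age difference passed 1% FDR, as for all 32905 genes tested (0 of 32905, 0.0%). The same test gave 10097 genes (30.7%) at an unadjusted p under 0.05, the likelihood ratio test of edgeR 1703 at 1% FDR, DESeq2 278 and limma 0, and none of these tests called any of the 9. Fitted values were above 0 for 5 and below 0 for 4, with a median of 0.02. The median was 0.15 over all genes tested and -0.14 over genes of at least 1 CPM, a level that all 9 reached. At an unadjusted p under 0.05 there was 1 of the 9, Peg13, which was lower. With library totals alone there were 4 and all were higher, where 25.4% of all genes tested were higher and 2.85% lower at that p. Over genes of at least 1 CPM those shares were 11.9% and 5.81%.

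**Figure D3:**
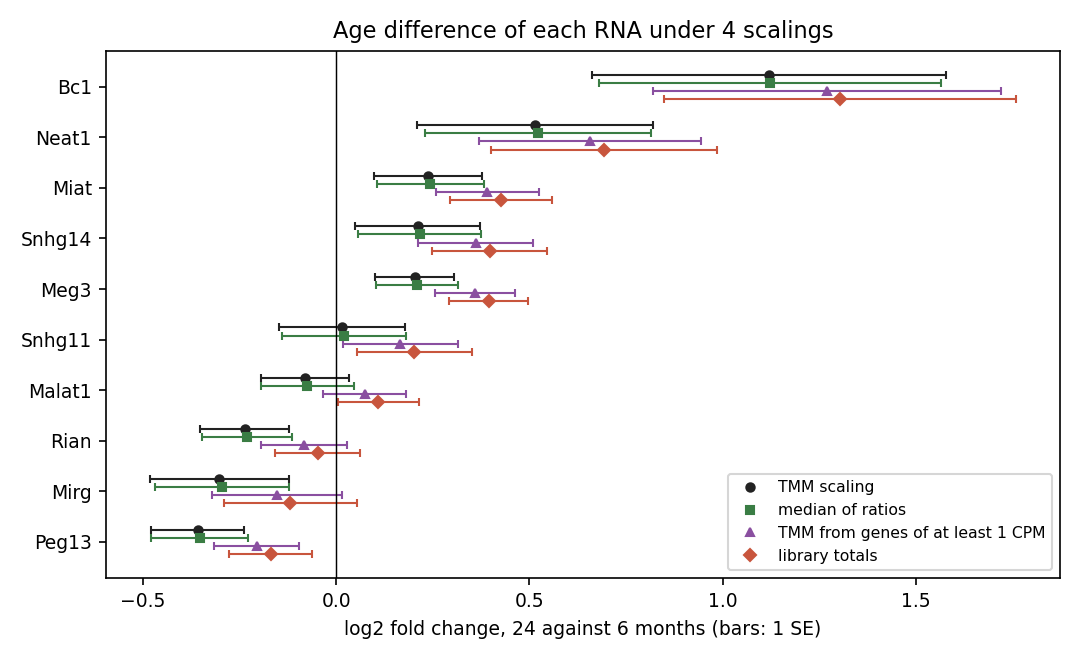
Log2 fold change of 24 against 6 months for the 10 RNAs, with bars of 1 SE, under 4 scalings of the counts. Bc1 stays near 1.1 to 1.3, Malat1 moves from -0.08 with TMM scaling to 0.11 with library totals, and Peg13, Mirg and Rian stay below 0.

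Malat1 is kept in nuclear speckles, where splicing factors gather, and lies on chromosome 19 from 5795690 to 5802672 on the minus strand as a single exon of 6983 bases. It had 4918, 4513 and 5345 TPM at 6 months and 4872, 4451 and 5798 TPM at 24 months. The ranges of the ages overlapped nearly completely. In CPM the means were 9778 ± 845 and 9248 ± 1266 (SD, n = 3), with a log2 fold change of -0.08 (SE 0.11, edgeR FDR 0.657) and a 95% confidence interval of -0.34 to 0.17. The sign depended on the scaling and was positive, at 0.11, with library totals alone.

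Neat1 is the RNA around which paraspeckles form, nuclear bodies that hold back certain proteins and RNAs, and it lies beside Malat1 on chromosome 19 from 5824708 to 5845478 on the same strand. The deposited row covers one exon of 20771 bases and so does not separate its short and long forms. Neat1 had 23.1, 27.9 and 29.4 CPM at 6 months and 18.8, 40.5 and 55.6 CPM at 24 months. Mouse 2 was the lowest and mouse 5 the highest of all 6, so the old mice lay on both sides of the young ones. The log2 fold change was 0.52 (SE 0.30, edgeR FDR 0.271, 95% confidence interval -0.16 to 1.19), 0.15 without 24-month mouse 5 and 0.85 without 24-month mouse 2. The summed oligodendrocyte markers Mbp, Mog and Mobp, 3 genes taken after values were seen, stood in the same order among the old mice, at 672, 1655 and 2279 CPM in mice 2, 4 and 5, but not among the young ones, at 1577, 2035 and 1308 CPM in mice 10, 11 and 17. That order was not particular to these 3 genes. Among the old mice it also held for the summed neuron markers, at 5856, 6779 and 7671 CPM. It held as well for the sums of microglia, endothelial cells, red blood cells, striatum and hippocampus. The astrocyte sum ran the other way (1314, 1293 and 1275 CPM), and those of choroid plexus and meninges followed neither order. The part of any cell type in the spread of Neat1 was not tested.

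Because the loci adjoin, Neat1 was also read against Malat1 within each library. There were 0.235, 0.314 and 0.277 Neat1 counts per 100 Malat1 counts at 6 months and 0.210, 0.496 and 0.523 at 24 months. Both ends of the range belonged to old mice, and the difference in log2 ratio was 0.47 (exact permutation test, two-sided, p = 0.4, where 3 mice against 3 cannot go below 0.1; adjusted over 5 ratios, p = 0.5).

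Among 8 neighbours of Malat1 and Neat1, 0 passed 1% FDR in the quasi-likelihood test, as for all 32905 genes tested (0.0%). At an unadjusted p under 0.05, 1 of the 8 was higher and 1 lower, beside 4.22% higher and 26.9% lower over genes of at least 1 CPM. Ltbp3, a binding protein of latent TGF-beta, was higher in all old mice (0.42, SE 0.15, FDR 0.103), as were 20.0% of all genes tested. Fitted values of others were Tigd3 (0.16), Slc25a45 (0.05), Pola2 (0.04), Frmd8 (-0.10), Dpf2 (-0.19) and Cdc42ep2 (-0.33). The median of the 8 was -0.03, or 0.15 with library totals alone. On that scaling 1 was higher and 0 lower at that p, beside 11.9% higher and 5.81% lower over genes of at least 1 CPM.

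Genes of paraspeckle proteins gave 0 calls at 1% FDR, as did all 32905 genes tested (0.0%). Of 12, 7 were lower and 0 higher at an unadjusted p under 0.05 with TMM scaling, with a median of -0.30, beside 26.9% lower and 4.22% higher and a median of -0.14 over genes of at least 1 CPM. With library totals alone 0 were lower and 1 was higher and the median was -0.11, beside 5.81% lower and 11.9% higher. Rbm14, needed to build the bodies, went from 15.6 ± 1.05 to 11.4 ± 0.590 CPM (SD, n = 3; -0.44, SE 0.12, FDR 0.0611), and the 3′ processing factor Cpsf6 from 114 ± 10.5 to 89.0 ± 14.8 CPM (-0.36, SE 0.13, FDR 0.102). Sfpq, a core protein that binds Neat1, was spread from 971 to 2922 counts among the young mice and stood at 0.02 (SE 0.35), and Dazap1 was at 0.14 (SE 0.12).

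Meg3, Rian and Mirg follow one another on chromosome 12 in the Dlk1-Dio3 domain, on the plus strand from 109541001 to 109571726, from 109603940 to 109661716 and from 109729764 to 109749460, and are expressed from the maternal copy. Meg3, the most abundant, had 2122, 2380 and 2498 CPM at 6 months and 2832, 2386 and 2839 CPM at 24 months. Old mice 2 and 5 were above every young mouse and mouse 4 was among them. The log2 fold change was 0.20 (SE 0.10, edgeR FDR 0.205, 95% confidence interval -0.03 to 0.43) and 0.39 with library totals alone.

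Rian, host of box C/D snoRNAs, had 20.2, 24.2 and 22.1 TPM at 6 months and 19.4, 18.2 and 23.5 TPM at 24 months. Mirg, host of a large microRNA cluster, had 8.86, 11.6 and 11.2 TPM at 6 months and 7.47, 8.37 and 11.9 TPM at 24 months. In both genes old mice 2 and 4 were below all young mice and mouse 5 was not. The log2 fold changes were -0.24 for Rian (SE 0.12, edgeR FDR 0.193) and -0.30 for Mirg (SE 0.18, FDR 0.273), and -0.05 and -0.12 with library totals alone.

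The 3 RNAs of the domain thus had fitted differences of unequal sign, which was examined within libraries, where scaling plays no part. Rian had 8.69, 9.19 and 8.02 counts per 100 Meg3 counts at 6 months and 5.74, 6.40 and 6.95 at 24 months. Mirg had 0.871, 1.00 and 0.927 per 100 Meg3 counts at 6 months and 0.505, 0.672 and 0.804 at 24 months. Neither ratio overlapped between the ages. The log2 ratio differed by -0.44 for Rian and by -0.52 for Mirg (exact permutation test, two-sided, p = 0.1 for each, the smallest that 3 mice against 3 can give; adjusted over 5 ratios, p = 0.25). The lower ratio was not particular to these RNAs. Of 15760 genes of at least 1 CPM, 45.9% had a lower ratio to Meg3 in all old mice and 2.11% a higher one. Measured against Malat1 instead, 7.34% were lower in all old mice and 6.06% higher.

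**Figure D4:**
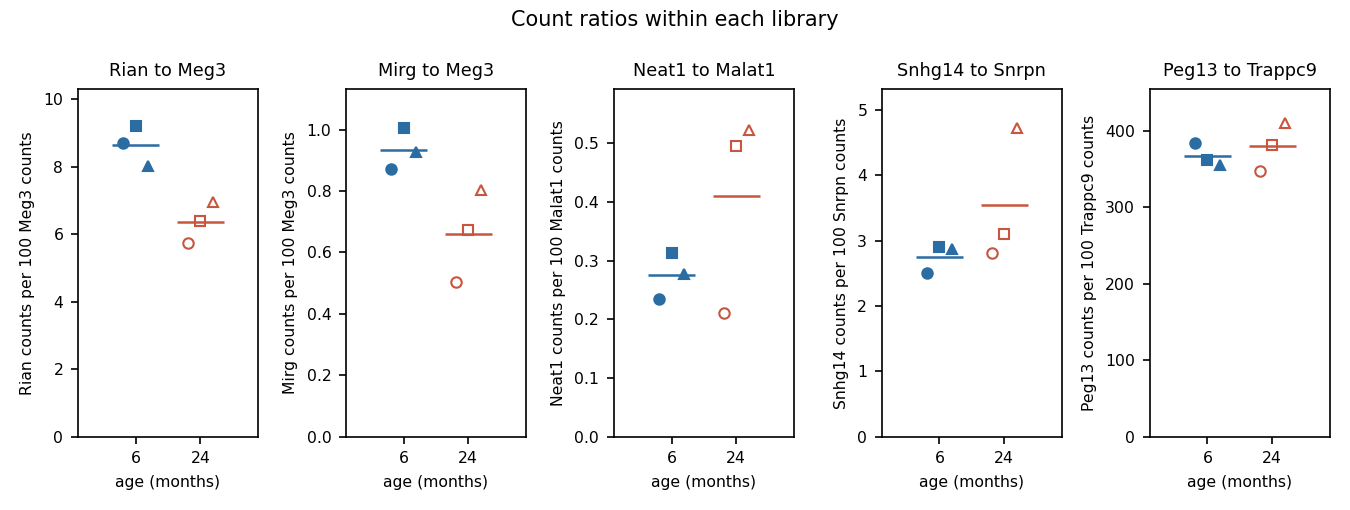
Counts of one RNA per 100 counts of another in the same library, for 5 pairs, with axes from 0, filled blue symbols for 6-month mice, open red symbols for 24-month mice and lines at the mean of each age. The ratios of Rian and Mirg to Meg3 are lower in every 24-month mouse, and the other 3 ratios overlap.

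The other genes of the domain gave 0 calls at 1% FDR in the quasi-likelihood test, as did all 32905 genes tested (0.0%). At an unadjusted p under 0.05, 1 of 8 was lower and 0 higher with TMM scaling. At that p 13.1% of all genes tested were lower and 17.6% higher, and 26.9% and 4.22% of genes of at least 1 CPM. With library totals alone 0 were lower and 0 higher. Wars, the tryptophan tRNA ligase gene at one edge of the list, went from 162 ± 9.13 to 129 ± 2.67 CPM (SD, n = 3; -0.33, SE 0.09, FDR 0.0607) and was the only one of 8 tested at an unadjusted p under 0.05. B830012L14Rik, a noncoding gene of the same region, was at -0.17 (SE 0.20), the paternally expressed Rtl1 at 0.16 (SE 0.18), Ppp2r5c at -0.06 (SE 0.10) and Begain, a postsynaptic protein gene, at 0.53 (SE 0.38) with 593 to 2402 counts among the young mice. The paternal genes of the domain's name were barely sampled, with 9 to 67 counts of Dlk1 and 6 to 46 of Dio3. Dio3os had 1 to 7 counts and AF357428 a single count in all. The genes nearest to Meg3 in pattern over the 6 libraries were Tep1, Gm15672, Rnaset2a, Gm49066 and 4932441J04Rik, at root mean square differences of 0.040 to 0.047, where Meg3's own deviation was 0.148.

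Snhg14 is the long transcript of the Snrpn-Ube3a domain that carries arrays of snoRNAs and, in neurons, runs antisense to Ube3a and silences its paternal copy. It lies on chromosome 7 from 59307924 to 59975759 on the minus strand, and 1803 of its exonic bases are shared with Ube3a on the opposite strand. No strand setting was among the stated changes to the defaults of featureCounts, which counts without strand, so reads there cannot be assigned to one gene or the other. Snhg14 had 46.5, 48.1 and 46.2 CPM at 6 months and 42.3, 50.7 and 70.0 CPM at 24 months. The young mice differed by at most 1.04-fold, and the old ones spread 1.65-fold around them. The log2 fold change was 0.21 (SE 0.16, edgeR FDR 0.393, 95% confidence interval -0.15 to 0.57) and was -0.01 without 24-month mouse 5. Relative to Snrpn, the protein-coding gene whose promoter Snhg14 is known to share, there were 2.50, 2.90 and 2.87 counts per 100 at 6 months and 2.81, 3.10 and 4.73 at 24 months, a difference of 0.33 in log2 ratio (exact permutation test, two-sided, p = 0.3; adjusted, p = 0.5). The ratio to Snrpn was lower in all old mice for 9.03% of genes of at least 1 CPM and higher for 9.3%.

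Of 10 other genes tested in this domain, 2 were higher and 2 lower at an unadjusted p under 0.05 and 0 passed 1% FDR in the quasi-likelihood test. At that p 17.6% of all genes tested were higher and 13.1% lower, and 4.22% and 26.9% of genes of at least 1 CPM. With library totals alone 2 were higher and 0 lower, beside 25.4% and 2.85% of all genes tested and 11.9% and 5.81% of genes of at least 1 CPM. Ndn, encoding the paternally expressed protein necdin, went from 146 ± 14.6 to 200 ± 32.1 CPM (SD, n = 3; 0.45, SE 0.13, FDR 0.0666) and was higher in all old mice. Peg12, also paternal, was at 1.02 (SE 0.40, FDR 0.126) on 4 to 23 counts. Atp10a (-0.43, SE 0.16, FDR 0.107) and Herc2 (-0.24, SE 0.09, FDR 0.120) were lower in all old mice. Over all genes tested, 20.0% were higher and 16.3% lower in all old mice. Ube3a itself had 276 ± 15.5 and 267 ± 52.7 CPM (-0.05, SE 0.13) and Snrpn 1709 ± 133 and 1542 ± 84.0 CPM (-0.15, SE 0.09). Magel2 (-0.91, SE 0.44), Mkrn3 (-0.31, SE 0.23) and Oca2 (-0.31, SE 0.33) had 7 to 57 counts per library, and Snurf, which shares its transcript with Snrpn, was at 0.

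Peg13 was the one RNA of the 9 whose ages did not overlap, which 36.3% of all genes tested also showed in one direction or the other. It is an unspliced RNA of 4725 bases inside an intron of Trappc9, a trafficking protein gene, on chromosome 15 from 72805600 to 72810324 on the minus strand, and it is known to be expressed from the paternal copy. It had 422, 423 and 370 CPM at 6 months and 269, 312 and 367 CPM at 24 months. The highest old mouse was just under the lowest young mouse. The means were 405 ± 30.5 and 316 ± 49.0 CPM (SD, n = 3), with a log2 fold change of -0.36 (SE 0.12, edgeR FDR 0.0897, 95% confidence interval -0.63 to -0.09). A gene being lower in all old mice was itself common here, at 16.3% of all genes tested. So was an unadjusted p under 0.05 with a lower value, at 13.1% of all genes tested and 26.9% of genes of at least 1 CPM. The log2 fold change of Peg13 was -0.17 with library totals alone.

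Trappc9 stood lower by a like amount, from 110 ± 6.53 to 83.0 ± 6.07 CPM (SD, n = 3; -0.41, SE 0.10, FDR 0.0552). There were accordingly 384, 361 and 355 Peg13 counts per 100 Trappc9 counts at 6 months and 347, 381 and 410 at 24 months, overlapping values whose log2 ratio differed by 0.05 (exact permutation test, two-sided, p = 0.7; adjusted, p = 0.7). For 38.9% of genes of at least 1 CPM the ratio to Trappc9 was higher in all old mice, and for 0.876% it was lower. Ptk2, the focal adhesion kinase gene, was at -0.35 (SE 0.12, FDR 0.0866) and lower in all old mice. Ago2, an Argonaute gene of small RNA silencing, was at -0.30 (SE 0.16), Kcnk9, the maternally expressed potassium channel gene of the domain, at -0.08 (SE 0.18) and Chrac1 at -0.06 (SE 0.10). All 5 neighbours and Peg13 had fitted values below 0 with TMM scaling, where the median over genes of at least 1 CPM was itself -0.14. The share of such genes below 0 was not counted. Of the neighbours 2 were lower at an unadjusted p under 0.05, beside 26.9% of genes of at least 1 CPM. With library totals alone the median of the neighbours was -0.11, beside 0.05 over genes of at least 1 CPM. On that scaling 1 neighbour was lower at that p, beside 5.81% of genes of at least 1 CPM.

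Miat is a nuclear RNA of neurons that forms bodies with splicing factors and lies on chromosome 5 from 112213228 to 112229395 on the minus strand. It had 52.8, 47.1 and 57.8 CPM at 6 months and 59.5, 51.9 and 74.6 CPM at 24 months. Mice 2 and 5 were above the young mice and mouse 4 was not. The log2 fold change was 0.24 (SE 0.14, edgeR FDR 0.270, 95% confidence interval -0.07 to 0.55) and 0.43 with library totals alone. Gm26953 on the opposite strand shares 2260 exonic bases with it and had 88 counts over the young and 151 over the old mice, against 5145 and 6261 of Miat.

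Snhg11 is a neuron-enriched host of snoRNAs on chromosome 2 from 158375638 to 158386145, plus strand, which GENCODE vM21 types as protein-coding. It had 2224, 1913 and 2457 CPM at 6 months and 1923, 1885 and 2856 CPM at 24 months. The old mice held both the lowest and the highest value, and the log2 fold change was 0.02 (SE 0.16, edgeR FDR 0.962, 95% confidence interval -0.35 to 0.38). It was -0.20 without 24-month mouse 5. That mouse had the highest CPM of all 6 for Bc1, Malat1, Neat1, Meg3, Miat, Snhg11 and Snhg14, 7 of the 10 RNAs. The lead was narrow for Malat1 (10642 against 10597 CPM in 6-month mouse 17) and Meg3 (2839 against 2832 CPM in 24-month mouse 2). The share of all genes that were highest in that mouse was not counted.

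Other snoRNA host genes gave 1 gene higher and 1 lower at an unadjusted p under 0.05 of 18 tested, with 0 past 1% FDR in the quasi-likelihood test and a median of 0.04, or 4 higher and 0 lower with library totals alone (median 0.23). Over genes of at least 1 CPM 4.22% were higher and 26.9% lower at that p, or 11.9% and 5.81% with library totals alone. Snhg15 (0.38, SE 0.19) and Snhg20 (0.26, SE 0.16) had the highest fold changes of those of at least 1 CPM and Epb41l4aos (-0.43, SE 0.29) and Snhg4 (-0.37, SE 0.15) the lowest. Of 23 other long noncoding RNAs known in brain, 2 were higher and 4 lower at that p and 0 passed 1% FDR. With library totals alone 6 were higher and 0 lower at that p. Over long noncoding RNA genes of at least 1 CPM 7.69% were higher and 5.13% lower, or 20.3% and 1.15% with library totals alone. Gm26917 was counted 510, 687 and 565 times in young and 1575, 1016 and 656 times in old mice (0.86, SE 0.27, FDR 0.0793). Kcnq1ot1, the antisense RNA of another imprinted domain, was at 0.20 (SE 0.12). Norad, a cytoplasmic RNA that binds Pumilio proteins, went from 822 ± 88.2 to 632 ± 77.8 CPM (SD, n = 3; -0.38, SE 0.12, FDR 0.0737), and Pantr1, known from the developing cortex, from 76.6 ± 8.79 to 59.4 ± 4.99 CPM (-0.37, SE 0.11, FDR 0.0763).

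**Figure D5:**
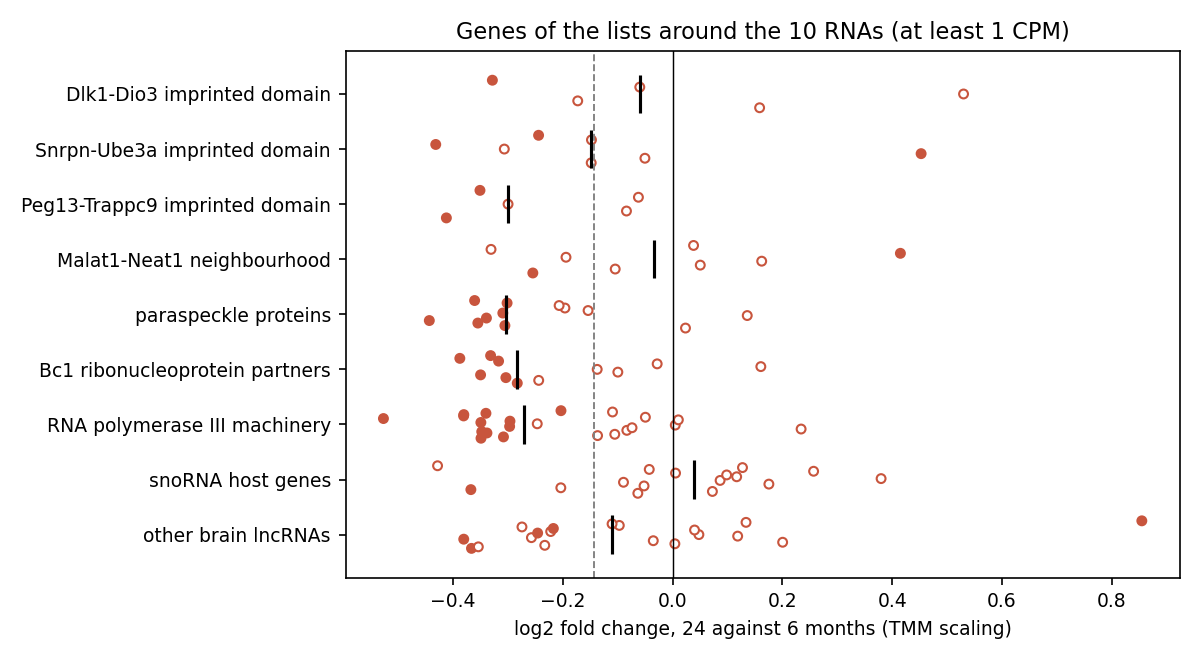
Log2 fold change (24 against 6 months, TMM scaling) of each gene of at least 1 CPM in 9 lists around the 10 RNAs, which are left out. Filled points have an unadjusted p under 0.05, black bars are list medians, and the dashed line is the median of all genes of at least 1 CPM (-0.14).

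Set beside their gene class, the 9 tested RNAs, at a median of 0.02, were near the 1131 other long noncoding RNA genes of at least 1 CPM, whose median was 0.01. At an unadjusted p under 0.05, 7.69% of that class were higher and 5.13% lower. Protein-coding genes of at least 1 CPM (13617) had a median of -0.17, with 367 higher and 4150 lower (30.5%). Scaling shifted both classes together, to 0.20 and 0.02 with library totals alone. Among genes of at least 10 CPM the medians were -0.10 for 132 long noncoding RNA genes and -0.21 for 9785 protein-coding genes.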

How the data were processed

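Cortex RNA from 6 mice was sequenced. The authors trimmed the reads with Trim Galore 0.6.4, mapped them to GRCm38 (GENCODE vM23) with STAR 2.7.3a and counted them on exons with featureCounts of Subread 2.0.0. For 55421 genes the authors deposited raw counts, and TPM values made from them and the gene lengths. Their stated options kept reads with several positions and split them, but 100% of the deposited counts were whole numbers. No column of per-sample values was left unused.

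Differential expression used edgeR 4.0.16 (R 4.3.3) on the deposited counts, with TMM factors (0.921 to 0.946 at 6 months, 1.04 to 1.10 at 24 months), genes of at least 10 counts over 6 libraries (32905), the quasi-likelihood test without covariates and Benjamini-Hochberg adjustment (FDR) at 1%. Intervals are 95%. Replicates are separate mice. Ratios within libraries had 0.5 added to both counts on the log2 scale. Alternatives were other scalings, filters and tests (DESeq2 1.42.0, limma 3.58.1 on log2(TPM + 1) or log2(TPM + 0.1)) and each mouse left out. Positions and exons are those of GENCODE vM21, which held 55240 of the identifiers, and sequences are from GENCODE and RefSeq (GRCm38). The fits were tested on simulated data.

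The 10 RNAs and the gene lists were chosen with earlier results of these data known. Genes named are the 10 RNAs, their listed neighbours, the 2 highest and 2 lowest fold changes of each other list among genes of at least 1 CPM, and the 5 genes nearest in pattern to Bc1 and to Meg3. A few neighbours are not reported here. Intervals and counts at this depth cover counting and animal spread only.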

Additional observations from a re-analysis of the deposited data

How the results depend on the processing

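Of the 9 RNAs tested, 0 passed 1% FDR under each of the 15 alternatives. The number at an unadjusted p under 0.05 (1 with TMM scaling) was 4 with library totals only and with TMM from genes of at least 1 CPM, all higher, where 25.4% and 23.6% of all genes tested were higher at that p. Over genes of at least 1 CPM those shares were 11.9% and 9.84%. The number was 2 with filterByExpr (13.5% of all genes tested higher, 7.36% of those of at least 1 CPM), 3 without a filter on low counts, and 0 to 3 with a mouse left out. Malat1 (-0.08) changed sign to 0.11 with library totals only, 0.074 with TMM from genes of at least 1 CPM, 0.033 with filterByExpr and 0.028 on both log2 TPM scales, and ranged from -0.19 to 0.0074 with a mouse left out. On leaving out a mouse, Snhg11 ranged from -0.20 (without 24-month mouse 5) to 0.13, Snhg14 from -0.0080 (without that mouse) to 0.37 and the log2 ratio of Peg13 to Trappc9 from -0.010 (without that mouse) to 0.11. Snhg11 was also below 0 without 6-month mouse 11 (-0.031). Bc1 ranged from 0.73 to 2.01 with a mouse left out and Peg13 from -0.47 to -0.24 (FDR 0.0355 to 0.323). Of 122 genes tested in the lists, 1 passed 1% FDR with the likelihood ratio test and 0 otherwise. The number at an unadjusted p under 0.05 (43, of which 7 higher and 36 lower) was 20 with library totals (17 higher, 3 lower), 21 with TMM from genes of at least 1 CPM, 26 on log2(TPM + 1), 27 on log2(TPM + 0.1), and 21 to 43 with a mouse left out. Which scaling is right was not tested. Over all genes the count at 1% FDR was 0 in the quasi-likelihood test, 42 without a filter, 278 with DESeq2 and 1703 with the likelihood ratio test. No paired analysis was possible because the mouse numbers of the ages are not shared. Of 13 rows of short RNAs other than Bc1, 9 had under 10 counts in all, too few to compare.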
